A study of Homo sapiens with 6 samples.

Results

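The genes described here are 40 genes of mitosis and of the G2/M transition, chosen as a list by symbol: the cyclin and kinase switch that starts mitosis, the mitotic kinases, the spindle checkpoint, the kinetochore, the spindle motors, and the factors of anaphase and cytokinesis. All 40 symbols were found among the 60609 gene identifiers of the deposited tables, and all 40 passed the filter on low counts, together with 20725 genes in all. RNA was measured in OCI-AML5, an established human acute myeloid leukemia (AML) cell line grown in aMEM with 10% heat-inactivated fetal bovine serum and 10 ng/mL GM-CSF. The control group held 3 libraries from cells given DMSO, the solvent, and the treated group 3 libraries from cells given 1 μM S767, a compound found by its activity on primary AML specimens, each after 24 hours. Both groups were the same line, 1 cell line at 1 dose and 1 time, so nothing is known here of other lines, doses or times. The labels number the libraries 1 to 3 in each group and do not say what a number stands for. *P* values measure only the spread between these libraries, which may be technical.

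Genes of this kind are switched on late in the cell cycle. In resting or arrested cells the DREAM complex holds them silent, and in cycling cells its MuvB core, with B-MYB and FOXM1, activates them. MuvB reads a short element near the start site called the cell cycle genes homology region (CHR), often spelled TTTGAA or TTTAAA, and NF-Y binds CCAAT boxes just upstream of it. The encoded proteins drive entry into mitosis, attach chromosomes to the spindle, and let sister chromatids separate, and their mRNAs are used in tumor samples as a measure of how many cells divide. In RNA from whole cultures, fewer cells in G2 or mitosis and less RNA per such cell cannot be told apart.

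The promoters of 5 of the members with the lower RNA described below, and those of *CDK1* and *CCNB1* as the core of the mitotic switch, are shown to place these elements. Each is the stretch from 105 bases before the RefSeq start site to 5 bases after it (GRCh38.p14), 5′ to 3′ on the strand of the gene. Capitals mark the CCAAT box and both spellings of the CHR, in either orientation, so that ATTGG is CCAAT and TTCAAA is TTTGAA read from the other strand, whereas TTTAAA reads the same on both. The *CDK1* sequence belongs to the second of its 2 start sites in the table, and the same stretch at the first held none of these elements.
*PLK1* promoter, chr16:23678784-23678893, plus strand: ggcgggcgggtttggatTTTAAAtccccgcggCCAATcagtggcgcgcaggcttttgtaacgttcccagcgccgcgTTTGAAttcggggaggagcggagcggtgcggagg
*CDC20* promoter, chr1:43358876-43358985, plus strand: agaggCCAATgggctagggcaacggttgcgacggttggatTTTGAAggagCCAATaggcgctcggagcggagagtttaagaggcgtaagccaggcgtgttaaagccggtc
*HMMR* promoter, chr5:163460527-163460636, plus strand: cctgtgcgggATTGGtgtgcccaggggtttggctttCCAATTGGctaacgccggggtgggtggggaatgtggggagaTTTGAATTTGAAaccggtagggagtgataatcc
*CENPE* promoter, chr4:103198339-103198448, minus strand: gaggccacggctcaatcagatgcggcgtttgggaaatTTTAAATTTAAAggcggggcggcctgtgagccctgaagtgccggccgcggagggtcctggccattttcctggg
*NDC80* promoter, chr18:2571452-2571561, plus strand: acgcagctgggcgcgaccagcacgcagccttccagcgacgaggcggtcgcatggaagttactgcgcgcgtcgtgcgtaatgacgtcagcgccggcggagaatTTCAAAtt
*CDK1* promoter, chr10:60778373-60778482, plus strand: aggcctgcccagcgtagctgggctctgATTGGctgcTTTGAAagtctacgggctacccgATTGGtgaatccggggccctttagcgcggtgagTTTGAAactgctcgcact
*CCNB1* promoter, chr5:69167045-69167154, plus strand: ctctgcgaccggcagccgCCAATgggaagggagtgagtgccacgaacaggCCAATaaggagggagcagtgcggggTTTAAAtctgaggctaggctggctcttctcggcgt
In *PLK1* a TTTGAA began 29 bases before the start site, and in *HMMR* a tandem pair began 28 and 22 bases before it. *CCNB1* had TTTAAA at 30 bases, below CCAAT boxes at 87 and 55 bases. *CENPE* had a tandem TTTAAA pair at 68 and 62 bases and no CCAAT in this stretch, and the single match in *NDC80* lay across the start site. In *HMMR*, a CCAAT and an ATTGG overlapped.

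RefSeq promoters of 300 bases, from 250 before to 50 after the start site, were found for 34 of the 40 members, with 44 start sites. CCAAT occurred on either strand in 75% of these promoters, against 34.6% of all 35116 promoters in the table. TTTGAA occurred in 63.6% against 15.2%, and TTTAAA in 31.8% against 12.2%. These shares describe the letters of the windows, and a match is not evidence of binding. Among the members, those with and without TTTGAA had close median log2 fold changes between S767 and DMSO, -0.02 over 25 genes and -0.03 over 9 genes.

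The libraries held 149994700 to 258029564 fragments on genes. At this depth every member other than *NUSAP1* and *PRC1* had at least 1853 fragments in every library. Of 10 myeloid markers, 8 were at or above 1 TPM (a level per transcript length, summing to the same total in each library) on average, all but *ANPEP* and *KIT*. Of 5 B cell markers, *CD79A* reached that level, at 8.69 TPM on average. None of the 5 T cell, 5 erythroid and 5 epithelial or stromal markers did, and *CD3E*, *CD2*, *HBA1*, *ALAS2* and *KRT18* were at 0 in every library. Libraries with the same replicate number deviated from their group means in the same direction. Their Pearson correlations were 0.75 to 0.87 over 6203 well expressed genes and 0.50 to 0.83 over the members. Libraries with different numbers had correlations of -0.62 to -0.24 over the same 6203 genes and of -0.74 to 0.27 over the members. Deviations from the mean of 3 libraries sum to 0 in each group. Positive same-number correlations thus pull the different-number ones down, and the latter are not separate evidence of pairing. Because of the same-number correlations, fits that add the number as a block are given beside the comparison without it. A gene is said to pass, or to be called, at an adjusted p under 0.05.

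All 40 genes were expressed in both groups. Mean TPM over the 6 libraries ran from 9.17 for *CDC25C*, a phosphatase that activates CDK1, to 245.1 for *TOP2A*, the topoisomerase that untangles sister chromatids. The median member was at 66.9 TPM, against 3.73 for all genes tested, and all 40 were above that median. After *TOP2A* the highest levels were those of *CDC20* at 211.9 TPM, *CCNB1* at 185.7 TPM, *PLK1* at 174.6 TPM and *PTTG1*, which encodes the separase inhibitor securin, at 164.3 TPM. Together the members took 0.336% to 0.339% of the summed TPM in the DMSO libraries and 0.316% to 0.332% in the S767 libraries, and the ranges of the 2 groups did not overlap. Their share of the counted fragments did overlap, at 0.648% to 0.663% with DMSO and 0.639% to 0.650% with S767, and it was lower with S767 in each of the 3 pairs.

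For 2 members the deposited tables gave very different amounts. *NUSAP1*, a microtubule-binding protein of the spindle (ENSG00000137804.14, chr15:41332694-41381050, plus strand, GRCh38), had 724 counted fragments in all libraries together, 0.350% of the 206571 that RSEM estimated. *PRC1*, which bundles the microtubules of the central spindle (ENSG00000198901.14, chr15:90966038-90995629, minus strand), had 1580, or 0.773% of the RSEM estimate. For the other 38 members the counts were 86.2% to 110% of the estimate. In GENCODE 29 *NUSAP1* lies almost wholly within the longer gene AC087721.2 (chr15:41284013-41380743) and *PRC1* lies largely within AC068831.7 (chr15:90966190-91022566), each on the same strand. The part of these overlaps in the gap was not tested. *BUB1B* and *CENPA*, which also share a strand with an overlapping protein-coding gene (BUB1B-PAK6 and SLC35F6), kept 86.2% and 107.8%. The values of *NUSAP1* and *PRC1* below are therefore given from RSEM as well.

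**Figure D1:**
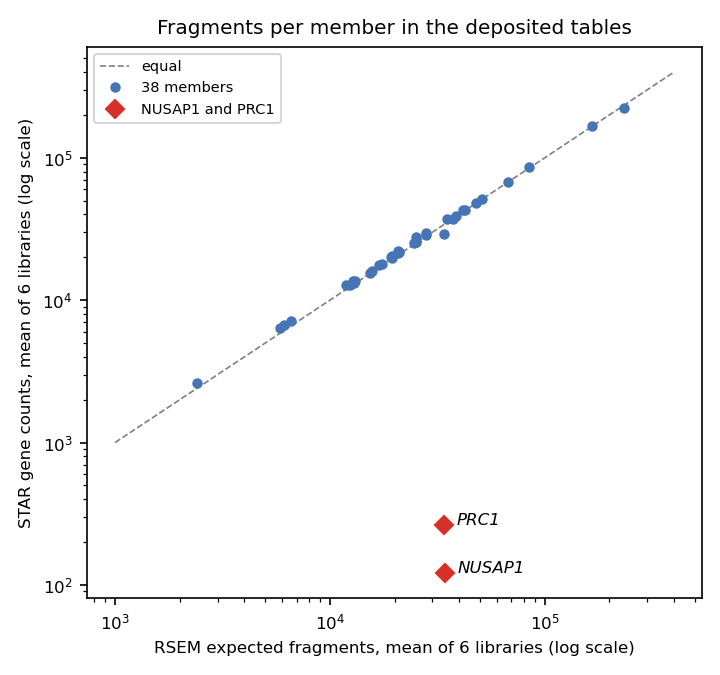
Counted fragments per gene against the expected fragments of RSEM for the 40 members, each the mean of 6 libraries, both axes on a log scale, with the dashed line at equality. Of the members, 38 lie along the line and *NUSAP1* and *PRC1* lie far below it, at 0.350% and 0.773% of the RSEM estimate.

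The comparison of S767 with DMSO asks whether 24 hours of the compound changed the RNA of the mitotic program. The members moved little. Log2 fold changes ran from -0.16 to 0.08 without *NUSAP1* and *PRC1*. The median member was at -0.02, against -0.00024 for all genes tested, and 32 of all 40 were within 0.1 of 0. *NUSAP1* and *PRC1* lay beyond 0.1 by their few counted fragments, and within it on RSEM counts (0.03 and -0.07). The log2 fold change was below 0 in 28 members, 70% of the list, and in 50.2% of all genes tested. With edgeR's quasi-likelihood test, no member reached an adjusted p under 0.05, where 0.00483% of all genes tested did. At an unadjusted P under 0.05 there were 4 members, *PLK1*, *HMMR*, *CENPE* and *CDC20*, all lower with S767, 10% of the list, where 1.51% of all genes tested were lower by that rule and 3.53% passed it in either direction. None was beyond 0.4 in size with P under 0.05, where 1.23% of all genes were. limma-voom and DESeq2 without the block also called no member at an adjusted p under 0.05, and each gave 4 lower members at P under 0.05.

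With the replicate number as a block, 6 members fell with S767 at an adjusted p under 0.05 in edgeR (*PLK1*, *HMMR*, *CENPE*, *CDC20*, *AURKA* and *NDC80*) and none rose, where 2.16% of all genes tested did. That is 15% of the list, where 1.08% of all genes tested, and 2.0% of the 6203 well expressed ones, were called lower. At P under 0.05, 12 members were lower and 2 higher with the block, 30.0% and 5.0% of the list, where 7.39% and 9.38% of all genes tested were. Of the 6203 well expressed genes, 11.7% were lower by that rule. The median standard error of a member's log2 fold change was 0.02 with the block and 0.04 without it. The calls were lost without the pair of replicate number 2, when the block gave no member and 24 genes in the series (0.113%) an adjusted p under 0.05. In that fit 8 members were lower at P under 0.05, and the share of all genes by that rule is not given here. Without replicate number 1 the block gave 9 members, 8 lower, and 2034 genes (9.86%) an adjusted p under 0.05. Without replicate number 3 it gave 5 members and 636 genes (3.06%), and *AURKA* was the member lost.

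**Figure D2:**
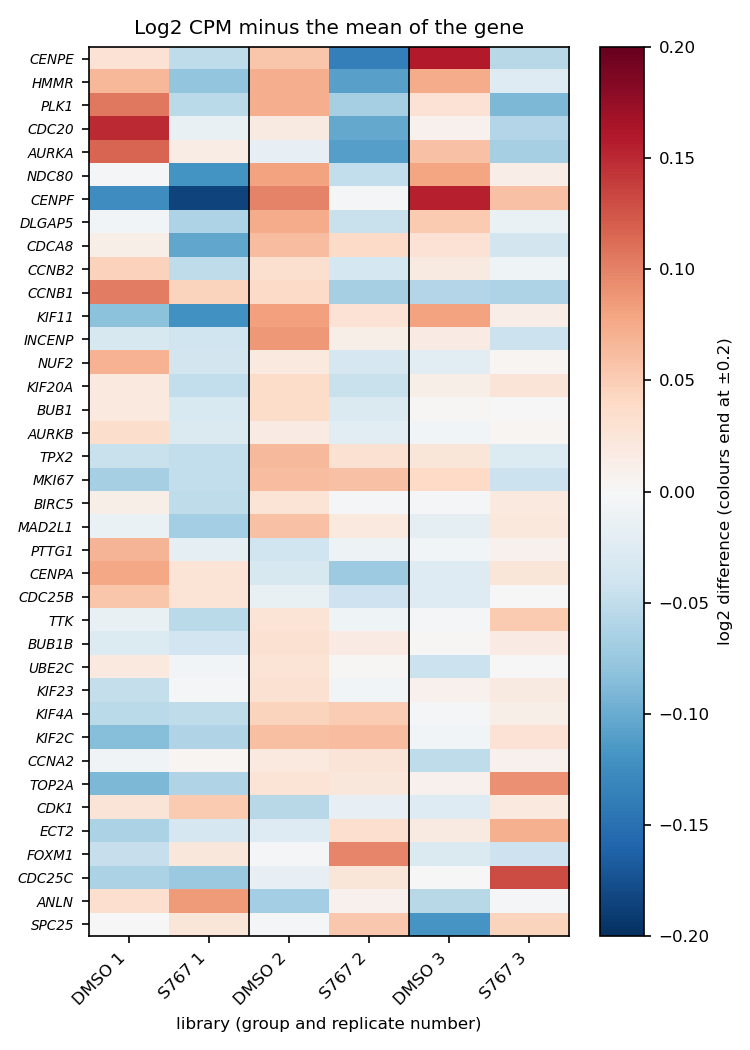
Log2 CPM of 38 members in each library minus the gene's mean over the 6 libraries, in columns by group and replicate number, with genes in rows ordered by log2 fold change with the block. The first rows, from *CENPE* to *NDC80*, are lower in S767 than in the DMSO library of the same number, as are *CENPF* and *KIF11*. Within DMSO, S767 or both, *CDC20*, *AURKA*, *NDC80*, *CENPF*, *KIF11* and *KIF2C* differ more between replicate numbers than between groups.

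Taken pair by pair, 16 members were lower with S767 in all 3 pairs, 40.0% of the list where 17.8% of all genes tested and 21.5% of the well expressed ones were, and 8 were higher in all 3 pairs, 20% where 19.9% were. The pairs were not alike. The median member ratio was -0.04 in pair 1 with 28 members lower, -0.04 in pair 2 with 29 lower, and 0.01 in pair 3 with 18 lower. In 8 members every S767 library was below every DMSO library (*BUB1*, *CCNB2*, *CDC20*, *CENPE*, *DLGAP5*, *HMMR*, *PLK1* and *PRC1*), 20% of the list where 4.08% of all genes tested were, and in 1 member, *SPC25*, every S767 library was above, as in 5.12% of all genes tested. *PRC1* is in the first count by its few counted fragments alone, and its TPM values overlapped between the groups. The TPM values of *CDC20* and *SPC25* overlapped between the groups as well. An exact permutation test of such a gene, 3 libraries against 3, cannot go below p = 0.1. For 34 of 40 members the range of log2 CPM among libraries of 1 group was wider than the log2 fold change between groups.

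**Figure D3:**
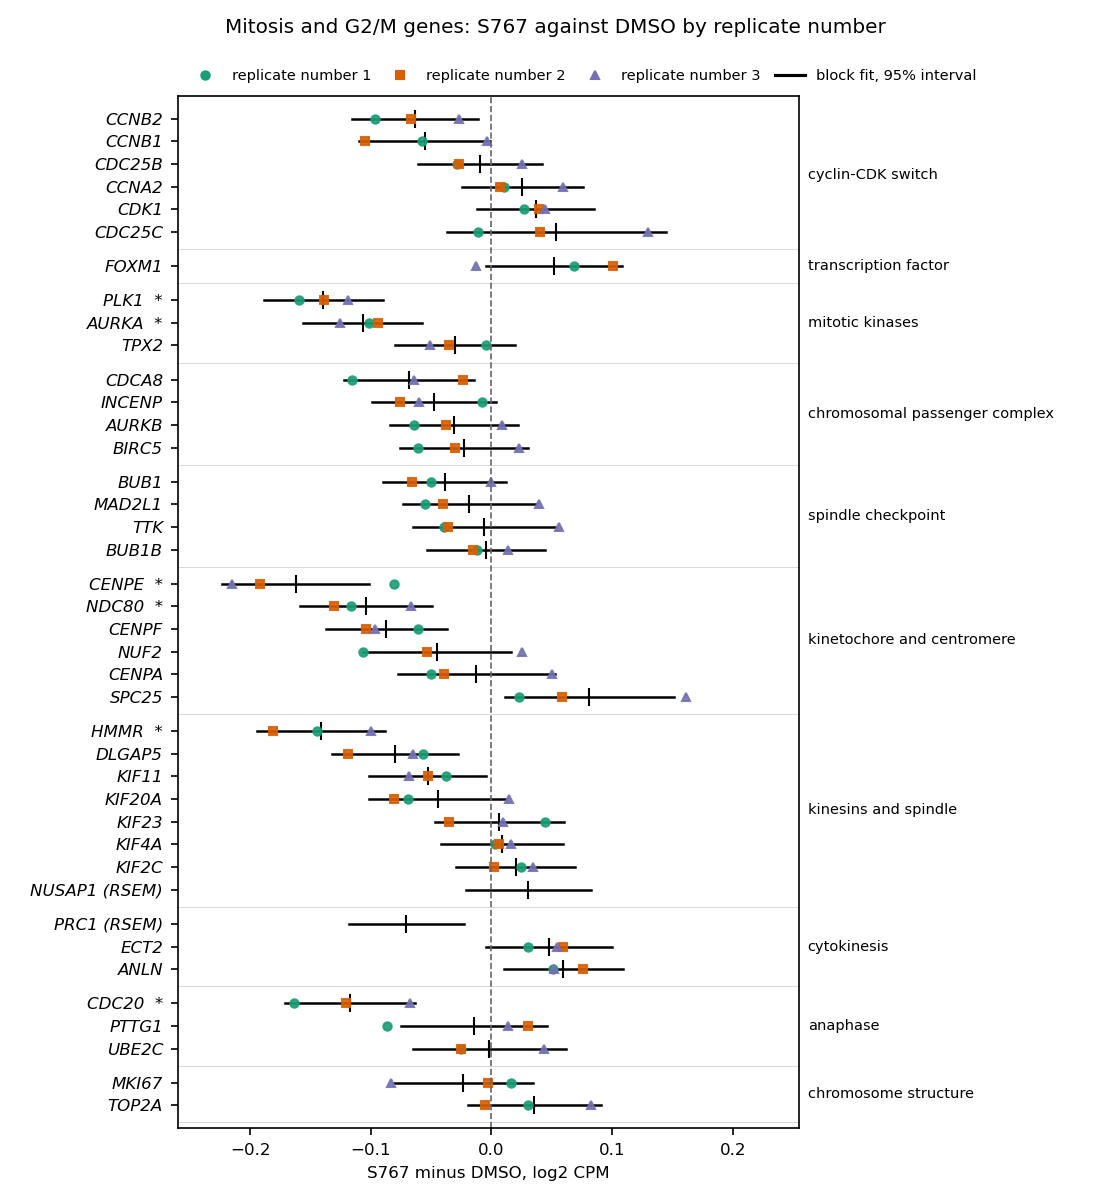
Difference in log2 CPM between the S767 and the DMSO library of the same replicate number (points) for each member, grouped by role, with the block estimate and its 95% interval (tick and line), and an asterisk for an adjusted p under 0.05 with the block. *NUSAP1* and *PRC1* are shown by the block fit of RSEM counts alone. Most estimates lie within 0.1 of 0, and the intervals of the 6 called genes lie below it.

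The mitotic kinases held a pair of the 6 genes that fell with the block. PLK1 is the polo-like kinase that matures centrosomes and promotes mitotic entry and exit. *PLK1* (ENSG00000166851.15, chr16:23677656-23690367) was at 265.6, 259.6 and 251.9 CPM (counts scaled to a common library size with TMM factors) in DMSO libraries 1, 2 and 3 and at 237.7, 235.8 and 232.0 CPM in the S767 libraries. The groups did not overlap, and S767 was lower in each pair. The log2 fold change was -0.14 (SE 0.04), and with the block *PLK1* fell by 9.2% (SE 0.02 on the log2 scale, adjusted p = 0.00729, edgeR).

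AURKA, the kinase of the centrosome and spindle poles, is activated by TPX2. *AURKA* (ENSG00000087586.17, chr20:56369389-56392337) was at 112.7, 102.8 and 108.3 CPM with DMSO and 105.1, 96.3 and 99.3 CPM with S767. The S767 library of pair 1 was above a DMSO library, so the groups overlapped, but each pair was lower with S767, by -0.10, -0.09 and -0.13 on the log2 scale. The log2 fold change was -0.11 (SE 0.05 without the block and 0.02 with it), with an adjusted p of 0.0273 with the block (edgeR). Without replicate number 3 the adjusted p was 0.0908 and without replicate number 2 it was 0.365, which ended the call. *TPX2* was at 320.1, 345.3 and 335.6 CPM with DMSO and 319.0, 336.9 and 324.0 CPM with S767, and did not pass either test (block adjusted p = 0.567).

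Among genes of anaphase, *CDC20* (ENSG00000117399.14, chr1:43358955-43363203) was called with the block. CDC20 activates the anaphase-promoting complex (APC/C), the ubiquitin ligase that removes securin and cyclin B. Its CPM was 257.8, 235.6 and 234.1 with DMSO and 230.2, 216.7 and 223.4 with S767, with every S767 library below every DMSO library. The log2 fold change was -0.12 (SE 0.05), and with the block it fell with an adjusted p of 0.0258 (edgeR, SE 0.02). Without DMSO library 1, the highest, the log2 fold change was -0.07. *UBE2C*, the ubiquitin-conjugating enzyme that works with APC/C, was at 31.2 ± 0.81 CPM with DMSO and 31.1 ± 0.09 with S767 (mean ± SD, n = 3), and *PTTG1* at 66.4 ± 2.56 and 65.7 ± 0.62 CPM, and the block intervals of both lay within 0.08 of 0 on the log2 scale.

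The kinetochore holds chromosomes to microtubules, and 2 of its 6 members here fell with the block. CENPE is the kinesin that carries chromosomes to the metaphase plate. *CENPE* (ENSG00000138778.12, chr4:103105806-103198409, minus strand) was at 108.4, 110.4 and 118.6 CPM with DMSO and 102.5, 96.6 and 102.2 CPM with S767, without overlap. Its log2 fold change of -0.16 (SE 0.05) was the lowest of the 38 members whose counts and RSEM estimates were close, and with the block the adjusted p was 0.00989 (edgeR, SE 0.03). The ratio was -0.08 in pair 1 and -0.19 and -0.21 in pairs 2 and 3. NDC80 is the arm of the kinetochore that grips the microtubule. *NDC80* (ENSG00000080986.13, chr18:2571511-2616635) was at 61.8, 65.5 and 65.4 CPM with DMSO and 57.0, 59.8 and 62.5 CPM with S767, where the S767 library of pair 3 was above the DMSO library of pair 1. The log2 fold change was -0.10 (SE 0.05 without the block and 0.03 with it), with adjusted p = 0.0437 with the block (edgeR), and 0.0532 with the block on RSEM counts, which ended the call, and 5 members and 2.09% of the genes tested passed in that fit. *NDC80* was also not called with the block in limma-voom, or on counts taken without regard to strand.

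The partners of NDC80 in the same complex did not pass with it. *NUF2* was at 69.2, 66.8 and 64.9 CPM with DMSO and 64.3, 64.4 and 66.1 with S767 (block adjusted p = 0.476). *SPC25* (ENSG00000152253.9) was at 32.6, 32.4 and 30.0 CPM with DMSO and 33.1, 33.8 and 33.6 with S767, every S767 library above every DMSO library, with a log2 fold change of 0.08 (SE 0.05 without the block and 0.03 with it) and a block adjusted p of 0.217 (edgeR). Without DMSO library 3 the log2 fold change was 0.04, and without the pair of replicate number 1 the block gave 0.11 and an adjusted p of 0.0239. Whether *SPC25* and *NDC80* differed from each other in response was not tested. *CENPF*, a large protein of the outer kinetochore, had the widest spread of the 6 kinetochore and centromere genes, with 384.2, 448.4 and 466.4 CPM with DMSO and 368.3, 417.3 and 436.2 with S767. Its libraries ranged over 0.28 on the log2 scale within DMSO, against a fold change of -0.09, and its block adjusted p was 0.0633. *CENPA*, the histone H3 variant of centromeres, was at 34.4 ± 1.48 and 34.0 ± 1.32 CPM (mean ± SD, n = 3).

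Of 8 kinesins and spindle proteins, *HMMR* (ENSG00000072571.20, chr5:163460203-163491945) was called with the block. HMMR binds hyaluronan at the cell surface and microtubules in the spindle. It had 110.0, 110.5 and 110.6 CPM with DMSO and 99.5, 97.5 and 103.2 CPM with S767. The DMSO libraries differed by 0.01 on the log2 scale, and all S767 libraries lay below them. The log2 fold change was -0.14 (SE 0.04), and with the block *HMMR* fell by 9.3% (SE 0.02 on the log2 scale, adjusted p = 0.00989, edgeR). *DLGAP5*, a microtubule stabilizer of the spindle, was at 99.8 ± 2.82 CPM with DMSO and 94.4 ± 1.64 CPM with S767 (mean ± SD, n = 3) without overlap, and its block adjusted p was 0.0978 (edgeR). The KIF kinesins ran from a log2 fold change of -0.05 for *KIF11*, the motor that separates the poles, through -0.04 for *KIF20A*, 0.01 for *KIF23*, 0.01 for *KIF4A* and 0.02 for *KIF2C*. None passed either test. *NUSAP1* was at 117.2, 112.3 and 114.0 TPM with DMSO and 120.5, 114.7 and 115.4 TPM with S767, which overlap, with a log2 fold change of 0.03 on RSEM counts (SE 0.03). Its few counts gave 0.20 (SE 0.17), and 0.10 to 0.32 on leaving out 1 library.

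**Figure D4:**
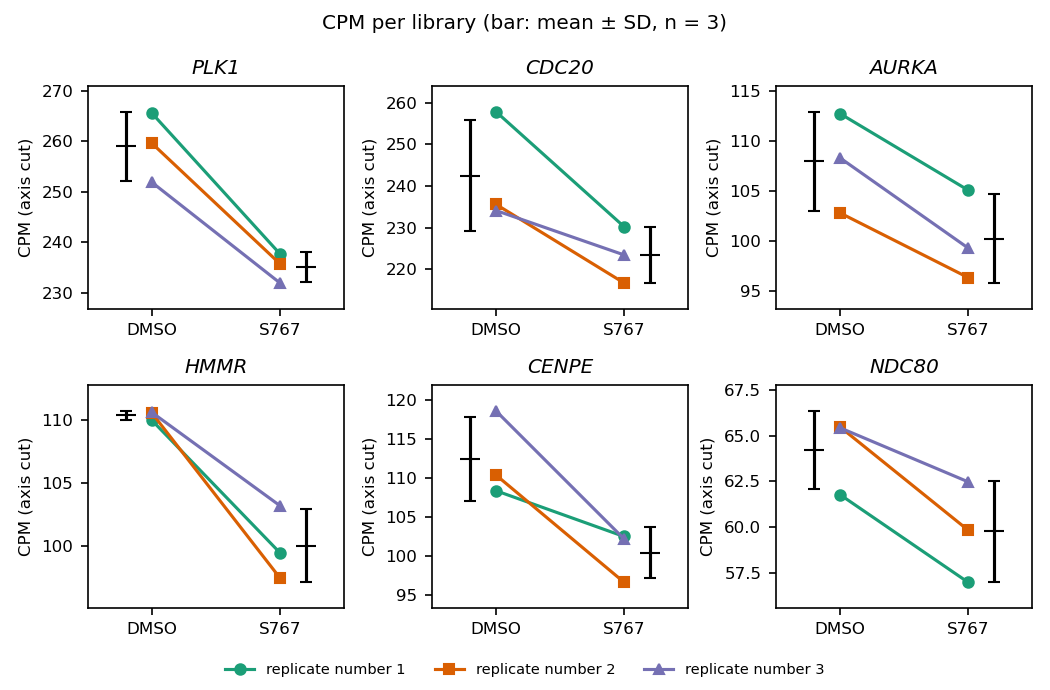
CPM in each library for the 6 members called lower with the replicate block, with a line joining the DMSO and S767 libraries of 1 replicate number and, beside them, the mean ± SD of each group (n = 3); the vertical axes do not start at 0. All lines fall from DMSO to S767, and for *AURKA* and *NDC80* the groups overlap.

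In the switch that begins mitosis, *CCNB1* and *CCNB2* were lower with S767 in all 3 pairs and *CDK1* and *CCNA2* higher in all 3, and none passed. CDK1 is the kinase of mitotic entry, and cyclins A2, B1 and B2 are its partners. *CDK1* (ENSG00000170312.16, chr10:60778331-60794852) was at 145.9, 137.9 and 140.8 CPM with DMSO and 148.6, 141.7 and 145.2 CPM with S767. Its groups overlapped, with a log2 fold change of 0.04 (SE 0.04) and a block interval of -0.01 to 0.09. Leaving out 1 library gave 0.02 (without DMSO library 2) to 0.06 (without DMSO library 1). *CCNB1* (ENSG00000134057.15, chr5:69167010-69178245) was at 202.8, 193.9 and 181.4 CPM with DMSO and 194.8, 180.3 and 180.9 CPM with S767, with a log2 fold change of -0.06 (SE 0.05 without the block, 0.03 with it) and a block adjusted p of 0.288 (edgeR), and leaving out 1 library gave -0.10 (without DMSO library 3) to -0.02 (without DMSO library 1). The block intervals of *CCNB1* (-0.11 to -0.00097) and *CCNB2* (-0.12 to -0.01) lay below 0. *CCNB2* was at 97.7 ± 0.95 and 93.5 ± 1.36 CPM (mean ± SD, n = 3) without overlap, with a block adjusted p of 0.198 (edgeR), and *CCNA2* was at 205.5 ± 5.01 and 209.1 ± 1.68 CPM. The phosphatases that activate CDK1 had log2 fold changes of -0.01 (*CDC25B*) and 0.05 (*CDC25C*). None of these 6 passed either test.

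*FOXM1* (ENSG00000111206.12, chr12:2857681-2877155), the transcription factor that activates genes of this list, was at 135.3, 139.5 and 137.0 CPM with DMSO and 141.9, 149.6 and 135.7 CPM with S767. Pair 3 went the other way from pairs 1 and 2, and the log2 fold change was 0.05 (SE 0.04, block adjusted p = 0.344, edgeR). Leaving out 1 library gave 0.02 (without S767 library 2) to 0.09 (without S767 library 3).

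The chromosomal passenger complex corrects faulty attachments. *AURKB* (ENSG00000178999.13, chr17:8204733-8210600), its kinase, was at 88.5, 87.3 and 86.0 CPM with DMSO and 84.6, 85.03 and 86.5 CPM with S767. The groups overlapped, at a log2 fold change of -0.03 (SE 0.03, block adjusted p = 0.592, edgeR). That value was -0.04 without DMSO library 3 and -0.02 without DMSO library 1. *INCENP*, the scaffold, had -0.05, *BIRC5*, which encodes survivin, -0.02, and *CDCA8*, which encodes borealin, -0.07, and none passed either test. In the spindle checkpoint, which delays anaphase until all chromosomes are attached, *BUB1* (ENSG00000169679.15, chr2:110637698-110678114) was at 211.2, 213.9 and 208.7 CPM with DMSO and 204.0, 204.3 and 208.6 CPM with S767. These groups did not overlap, with a log2 fold change of -0.04 (SE 0.03, block adjusted p = 0.452, edgeR). *BUB1B*, *TTK* and *MAD2L1* had log2 fold changes of -0.0044, -0.01 and -0.02.

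Cytokinesis divides the cell after anaphase. *ANLN* (ENSG00000011426.11, chr7:36389806-36453791), the anillin scaffold of the contractile ring, was at 126.2, 117.6 and 118.6 CPM with DMSO and 130.7, 124.0 and 122.9 CPM with S767, higher in each pair but overlapping between groups, with a log2 fold change of 0.06 (SE 0.04 without the block, 0.02 with it) and a block adjusted p of 0.197 (edgeR). Leaving out 1 library gave 0.03 (without S767 library 1) to 0.09 (without DMSO library 1). *ECT2*, which activates RhoA at the division plane, had a log2 fold change of 0.05 (block adjusted p = 0.344). *PRC1* was at 122.3, 115.7 and 118.9 TPM with DMSO and 119.6, 110.5 and 107.9 TPM with S767, which overlap. Its log2 fold change was -0.07 on RSEM counts (SE 0.03, block adjusted p = 0.121), whereas its few counts gave -0.18 (SE 0.12, block adjusted p = 0.416, edgeR).

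The usual proliferation markers did not pass either test. *MKI67* (ENSG00000148773.14, chr10:128096659-128126385), the Ki-67 protein that coats mitotic chromosomes, was at 1041, 1137 and 1120.4 CPM with DMSO and 1053, 1135 and 1058 CPM with S767, with a log2 fold change of -0.02 (SE 0.05) whose sign turned without DMSO library 2. *TOP2A* (ENSG00000131747.15, chr17:40388516-40417950) was at 765.8, 830.6 and 819.9 CPM with DMSO and 781.8, 827.5 and 868.0 CPM with S767, with a log2 fold change of 0.04 (SE 0.05) whose sign turned without S767 library 3. The block intervals of these genes were -0.08 to 0.03 for *MKI67* and -0.02 to 0.09 for *TOP2A*. With the block, 37 of the 40 members had an interval within 0.2 of 0 on the log2 scale, and without it 30 did. In both, *NUSAP1* and *PRC1* were taken by their few counted fragments.

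Other genes of the cell cycle were listed by function, 144 in 8 lists, of which 143 were tested. None passed edgeR's test without the block. With it 5 of the 143 did, a share close to the 3.23% of all genes tested that passed in either direction. Of the 5, 3 were lower and 2 higher, where 1.08% and 2.16% of all genes tested were. Without the pair of replicate number 2 the block called none of the 143. Of 12 genes of condensin and cohesin control (median log2 fold change -0.03), *NCAPG*, a condensin subunit, fell from 137.1 ± 3.69 to 128.2 ± 2.81 CPM (mean ± SD, n = 3, adjusted p = 0.0417 with the block). Of 18 other spindle motors and spindle proteins (median -0.02), *KNSTRN*, which encodes kinastrin, fell from 64.2 ± 1.87 to 59.2 ± 1.48 CPM (adjusted p = 0.0239), and *ASPM*, a protein of the spindle poles, fell from 207.5 ± 13.9 to 193.2 ± 9.54 CPM (adjusted p = 0.043). None was called among 24 other kinetochore genes (median 0.02), 15 APC/C subunits and inhibitors (0.02), 16 genes of the G2 checkpoint and CDK1 control (-0.01) and 15 regulators of the DREAM and MuvB complexes (0.0041). The genes with the smallest *P* in the first 3 were *SKA1*, of the complex that couples kinetochores to microtubules, at 28.8 ± 1.45 and 30.4 ± 0.32 CPM (mean ± SD, n = 3, adjusted p = 0.2 with the block), *ANAPC11*, the RING subunit of APC/C, at 71.3 ± 3.01 and 77.2 ± 3.02 CPM (adjusted p = 0.0846), and *CCNF*, which encodes cyclin F, at 119.5 ± 1.76 and 112.8 ± 1.52 CPM (adjusted p = 0.0769). In the last, *NFYA*, a subunit of NF-Y, was at 77.8 ± 2.64 and 72.6 ± 0.92 CPM with an adjusted p of 0.0503.

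Of 37 genes of replication and S phase (median log2 fold change 0.0046), 1 rose with the block, where 2.16% of all genes tested did. This was *RRM2*, the small subunit of ribonucleotide reductase. Its CPM was 394.6, 413.4 and 389.8 with DMSO and 444.6, 454.6 and 410.5 with S767, and its log2 fold change was 0.13 (SE 0.03, adjusted p = 0.0186 with the block). The lowest S767 library lay below the highest DMSO library. Of 6 CDK inhibitors tested, 1 rose with the block, against the same 2.16% of all genes tested. This was *CDKN1A*, which encodes p21, a target of p53 that acts upstream of DREAM. It was at 226.3, 137.1 and 160.8 CPM with DMSO and 261.3, 180.5 and 198.9 CPM with S767. Replicate number 1 was the highest in both groups, so the groups overlapped, and the log2 fold change was 0.30 with the block (SE 0.03, adjusted p = 0.000448) and 0.29 without it (SE 0.19), both from edgeR. *CDKN1B*, which encodes p27, and *CDKN2C* had log2 fold changes of 0.07 and 0.06 and did not pass, *CDKN2D* had -0.02, and *CDKN1C* and *CDKN2A* were below 0.15 CPM in every library.

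**Figure D5:**
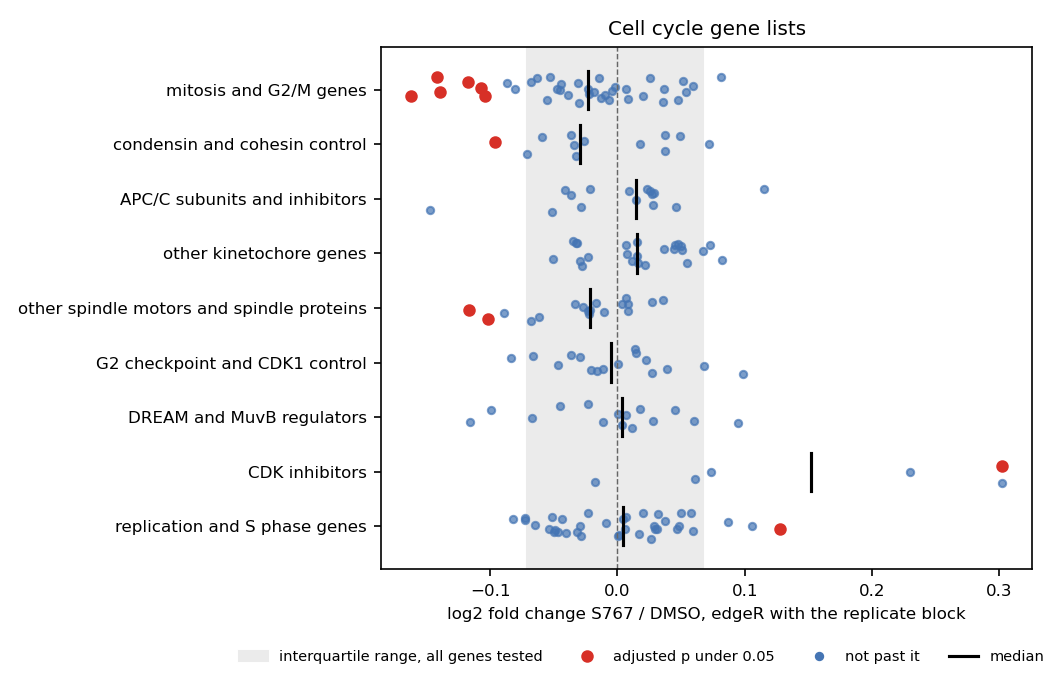
Log2 fold change between S767 and DMSO with the replicate block for the genes of the mitosis list (without *NUSAP1* and *PRC1*) and of 8 other cell cycle lists, 1 point a gene, with the median as a line, genes past an adjusted p of 0.05 in red and the interquartile range of all genes tested shaded. The 6 red points of the mitosis list lie between -0.16 and -0.10, and the lone red points above 0 are *CDKN1A* and *RRM2*.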

How the data were processed

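RNA of OCI-AML5 cells was sequenced in 3 DMSO and 3 S767 libraries (polyA-selected, stranded). The submitters' processing notes name STAR 2.7.1a, RSEM 1.2.28 and the GRCh38 build. The annotation release is not given in the sources used here, and positions are those of GENCODE 29. The authors deposited whole-number counts per gene, of which the column for the reverse strand was used, RSEM expected counts, which are estimates and were rounded to whole numbers, and TPM, scaled by RSEM to a fixed sum per library. Lines that name no gene held 19.7% to 20.7% of fragments and were left out.

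Counts were scaled by TMM, filtered with filterByExpr (minimum count 10) and compared with glmQLFTest (edgeR 4.0.16, R 4.3.3). P-values of all 20725 genes tested were adjusted by Benjamini-Hochberg. The SE was derived from the log2 fold change and the F statistic. Alternatives were the replicate number as a block, limma-voom (limma 3.58.1), DESeq2 1.42.0, other scalings and filters, RSEM counts, log2(TPM + 1) and log2(TPM + 0.1), counts without regard to strand, and leaving out libraries. The test was tested on simulated data. The replicate numbers were taken to pair the libraries because all same-number correlations of the deviations from the group means were above 0.1. No 2 libraries were repeats of each other (chi-square per gene 15.8 or more).

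The members and lists were chosen with earlier results of these data known. Members with full values were those called with or without the block, those with P under 0.05 without it, the 3 highest and 3 lowest log2 fold changes, and 10 genes named whatever their values. *TPX2*, *NUF2* and *CENPF* met none of these rules and are given in each library as well. From each other list, up to 4 genes called with the block were named, or else the gene with the smallest P, and all CDK inhibitors tested.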

Additional observations from a re-analysis of the deposited data

How the results depend on the processing

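The median log2 fold change of the members stayed below 0 under every alternative, from -0.01 (without S767 replicate 1) to -0.05 (log2(TPM + 0.1)). All genes tested had medians of -0.0040 and -0.0134 in these fits, in the same order. Without the block, no alternative gave a member an adjusted p under 0.05. On log2(TPM + 1) 7 members had P under 0.05, and on log2(TPM + 0.1) 7 did. On counts edgeR gave 4, scaling by library size alone 5, and the fit without DMSO replicate 1 gave 6. By that rule 3.53% of all genes tested passed with edgeR on counts, and the share in the other fits is not given here. The replicate block gave 6 members past the adjusted p with edgeR, 6 with limma-voom, 7 with DESeq2, 6 with scaling by library size alone, 5 with RSEM expected counts and, an alternative chosen after seeing the data, 5 with counts taken without regard to strand, where 3.23%, 2.94%, 3.04%, 2.98%, 2.09% and 2.81% of all genes tested passed. *CENPF* was called in place of *NDC80* by limma-voom and beside it by DESeq2. In the same order, 5, 5, 9, 7, 4 and 4 genes of the other cell cycle lists passed the adjusted p. At P under 0.05 these fits gave 14, 14, 13, 14, 15 and 13 members. By that rule 7.39% of all genes tested were lower and 9.38% higher with edgeR and the block. That share is not given here for any other fit with the block, so those counts cannot be set against it. Leaving out a pair under the block gave 0 to 9 members past the adjusted p, 8 to 14 at P under 0.05, and 0 to 20 genes of the other lists, where 0.113% (without replicate 2) to 9.86% (without replicate 1) of all genes passed.

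Leaving out 1 library gave log2 fold changes of -0.0607 to 0.0015 for *MKI67* and of -0.0018 to 0.0747 for *TOP2A*. *MKI67* turned to 0.0015 on the log2 scale without DMSO replicate 2 and to 0.0049 under the block without replicate 3, and *TOP2A* to -0.0018 without S767 replicate 3; the cause was not tested. *PLK1*, *HMMR*, *CENPE*, *CDC20*, *AURKA* and *NDC80* kept a log2 fold change below 0 under all alternatives run. The data hold 3 libraries a group and 1 dose, line and time, and all calls of members needed the block. Counting error is small at this depth, except for *NUSAP1* and *PRC1*.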
